A study of Mus musculus with 6 samples.

Results

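RNA-seq counts of 8 complement genes were examined in P21 mouse retinae, namely C1qa, C1qb, C1qc, C3, C4b, C3ar1, Serping1 and Itgam. They were taken by symbol from a table of 24062 genes, and all 8 were present. The table held 3 Chx10-Cre Rb1/p107/Hells triple knockout (TKO) retinae and 3 Chx10-Cre Rb1/p107 double knockout (DKO) retinae of C57BL/6 mice at postnatal day 21. The study's methods give the background as C57BL/6N. Both genotypes lacked p107 in every cell and lost Rb1 where Cre was active, and the TKO retinae also lost Hells, which encodes a chromatin remodeling helicase. According to the study, Chx10-Cre acts in a mosaic of retinal progenitors, so each whole retina mixed recombined cells with cells that kept the floxed alleles. No retina with intact Rb1 and p107 was among these libraries. The labels do not say whether all replicates came from separate mice, so the tests measure the spread between these retinae. Y-linked counts were present in TKO1, DKO1 and DKO2 only, so each group held both sexes, in shares that differed between the groups. The libraries held 12083082, 12888233 and 10343907 counts in TKO1, TKO2 and TKO3, and 12635061, 13455972 and 14203098 counts in DKO1, DKO2 and DKO3. Hells itself had normalized counts (counts scaled for library size and composition) of 60.8, 68.4 and 83.4 in the TKO retinae and of 678, 523 and 395 in the DKO retinae, which matched the labels.

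Complement is a cascade of secreted proteins that tags cells and debris for clearance. In the classical pathway, C1q, assembled from the chains encoded by C1qa, C1qb and C1qc, binds a target and activates C1r and C1s, which cleave C4 and C2, and the convertase formed in this way cleaves C3. The fragments act on receptors, among them C3ar1 for the anaphylatoxin C3a and the integrin of Itgam and Itgb2 (complement receptor 3) for C3 fragments on surfaces. Serping1 encodes the C1 inhibitor. In the retina, microglia are the usual source of C1q and carry complement receptor 3, and glia can make C3 and C4 when reactive. Microglia do not descend from retinal progenitors.

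The C1q chains are encoded side by side on the minus strand of chromosome 4, at chr4:136880129-136886187 (C1qb), chr4:136889804-136893065 (C1qc) and chr4:136895917-136898803 (C1qa) in GRCm38. C3 and C4b lie on chromosome 17, at chr17:57203970-57228136 and chr17:34728380-34743882. C3ar1 lies at chr6:122847138-122856161 and Serping1 at chr2:84765387-84775444, all on the minus strand. Itgam lies on the plus strand at chr7:128062640-128118491, where the annotated gene Gm49368 overlaps it on the same strand. Promoter windows from 250 bases before to 50 bases after the start site were found in a RefSeq table (GRCm38.p6) for 5 of the 8 genes (C1qb, C1qc, C3, C3ar1 and Itgam). Those of C1qb and C1qc are shown as neighbors that moved together, that of C3 as the gene of largest change, and that of Itgam because it held most of the motif matches. They cover chr4:136886151-136886450 (C1qb, minus strand), chr4:136892865-136893164 (C1qc, minus strand), chr17:57228087-57228386 (C3, minus strand) and chr7:128062390-128062689 (Itgam, plus strand). Each is written 5′ to 3′ along the gene, with capitals marking the letters GAGGAAG or their reverse complement, a form of the core bound by the myeloid factor PU.1.
C1qb: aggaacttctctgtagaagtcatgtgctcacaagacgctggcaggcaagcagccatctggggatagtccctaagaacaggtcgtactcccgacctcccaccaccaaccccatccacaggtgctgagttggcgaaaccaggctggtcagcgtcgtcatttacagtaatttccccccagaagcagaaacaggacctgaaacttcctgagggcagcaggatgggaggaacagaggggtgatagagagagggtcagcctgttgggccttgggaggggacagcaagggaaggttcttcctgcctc
C1qc: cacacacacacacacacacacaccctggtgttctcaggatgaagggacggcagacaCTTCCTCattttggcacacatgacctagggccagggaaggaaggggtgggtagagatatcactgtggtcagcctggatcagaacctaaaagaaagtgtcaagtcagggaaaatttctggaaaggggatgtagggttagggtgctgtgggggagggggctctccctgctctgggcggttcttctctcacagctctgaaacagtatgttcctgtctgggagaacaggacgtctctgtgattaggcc
C3: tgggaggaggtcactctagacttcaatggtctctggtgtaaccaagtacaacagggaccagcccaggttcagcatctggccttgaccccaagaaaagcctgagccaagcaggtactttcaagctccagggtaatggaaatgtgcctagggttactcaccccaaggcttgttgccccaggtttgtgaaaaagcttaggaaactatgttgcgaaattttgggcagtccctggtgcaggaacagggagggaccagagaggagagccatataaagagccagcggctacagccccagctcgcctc
Itgam: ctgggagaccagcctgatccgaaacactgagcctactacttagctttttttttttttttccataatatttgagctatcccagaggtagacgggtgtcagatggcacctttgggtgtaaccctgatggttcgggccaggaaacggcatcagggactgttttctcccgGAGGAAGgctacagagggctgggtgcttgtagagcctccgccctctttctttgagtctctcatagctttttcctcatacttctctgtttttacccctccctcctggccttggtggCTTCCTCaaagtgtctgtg

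GAGGAAG occurred once in the C1qc window, on the opposite strand, with its first base 194 bases before the start site. It occurred at 2 places in the Itgam window, at 84 bases before and 32 bases after the start site, and not in the windows of C1qb, C3 and C3ar1. Of all 32851 RefSeq windows, 13.6% held it on either strand. The interferon-type letters GAAANNGAA (8.56% of all windows), the STAT-type letters TTCNNNGAA (8.3%) and the E2F-type letters TTTCCCGC (1.07%) were in none of the 5 windows on either strand. These matches are a description of letters, and say nothing of binding.

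Of the 8 complement genes, 7 fell in TKO compared with DKO retinae (edgeR quasi-likelihood test, adjusted p at most 0.05), and only Itgam did not pass. Across all 16904 genes tested, 9.2% fell and 7.35% rose. The same 7 genes also had a change of at least 2-fold and a mean of at least 10 normalized counts, the criteria of the study's methods, which 4.38% of all tested genes met in this direction. For these 7 genes the TKO and DKO values did not overlap, as was so for 20.6% of all tested genes with TKO below DKO. The median log2 fold change of the 8 genes was -1.28, against -0.011 over all genes tested. In a bulk library, fewer cells that express a gene and less of its RNA per cell cannot be told apart.

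C3, the central component cleaved by every pathway, changed most. Its normalized counts were 68.8, 77.9 and 130.1 in TKO1, TKO2 and TKO3, and 507, 464 and 850 in DKO1, DKO2 and DKO3. The lowest DKO retina thus lay 3.57-fold above the highest TKO retina, and DKO3 stood above the other two DKO retinae. The log2 fold change was -2.72 ± 0.30 (SE, n = 3 per group; edgeR, adjusted p = 0.0048), from a mean of 607 in DKO to 92.3 ± 33.1 (SD) in TKO retinae. C3 was also the only one of the 8 genes to keep its call under every alternative tried, with a log2 fold change from -3.04 to -2.40 and an adjusted p of at most 0.0362 in edgeR and DESeq2 fits.

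The C1q chains fell together by about the same amount. C1qa had 221, 270.5 and 409.9 normalized counts in the TKO retinae and 642, 939 and 616 in the DKO retinae. C1qb had 227, 329 and 503 against 695, 955 and 730.4. C1qc had 148, 235 and 324 against 508, 714 and 489.5. For each chain TKO1 was lowest, TKO3 was highest of the TKO retinae, DKO2 was highest of all, and no TKO retina reached a DKO retina. The log2 fold changes were -1.29 ± 0.24 for C1qa (adjusted p = 0.0125), -1.17 ± 0.26 for C1qb (adjusted p = 0.0202) and -1.28 ± 0.27 for C1qc (adjusted p = 0.0167; edgeR, SE, n = 3 per group). The chains also kept near-constant proportions. Per length, C1qa made up 38.0% to 42.7% of the summed C1q level in a library, C1qb 40.8% to 45.1% and C1qc 15.4% to 17.8%, while that summed level itself ran from 163 to 791 TPM (a length-scaled unit).

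C4b, which supplies the C4 fragment of the classical and lectin convertase, had the highest count of the 8 genes and the smallest change that passed. It had 782, 1072 and 1776 normalized counts in the TKO retinae and 2303, 2108 and 2917 in the DKO retinae. The groups did not overlap, but TKO3 came within 1.19-fold of DKO2. The log2 fold change was -1.01 ± 0.27 (edgeR, adjusted p = 0.0372, SE, n = 3 per group). This call was lost on leaving out any retina other than TKO3, with an adjusted p of up to 0.129 in edgeR, and with robust dispersion (0.0844). C4b has a near-identical copy, C4a, so reads may have been divided between the pair.

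**Figure D1:**
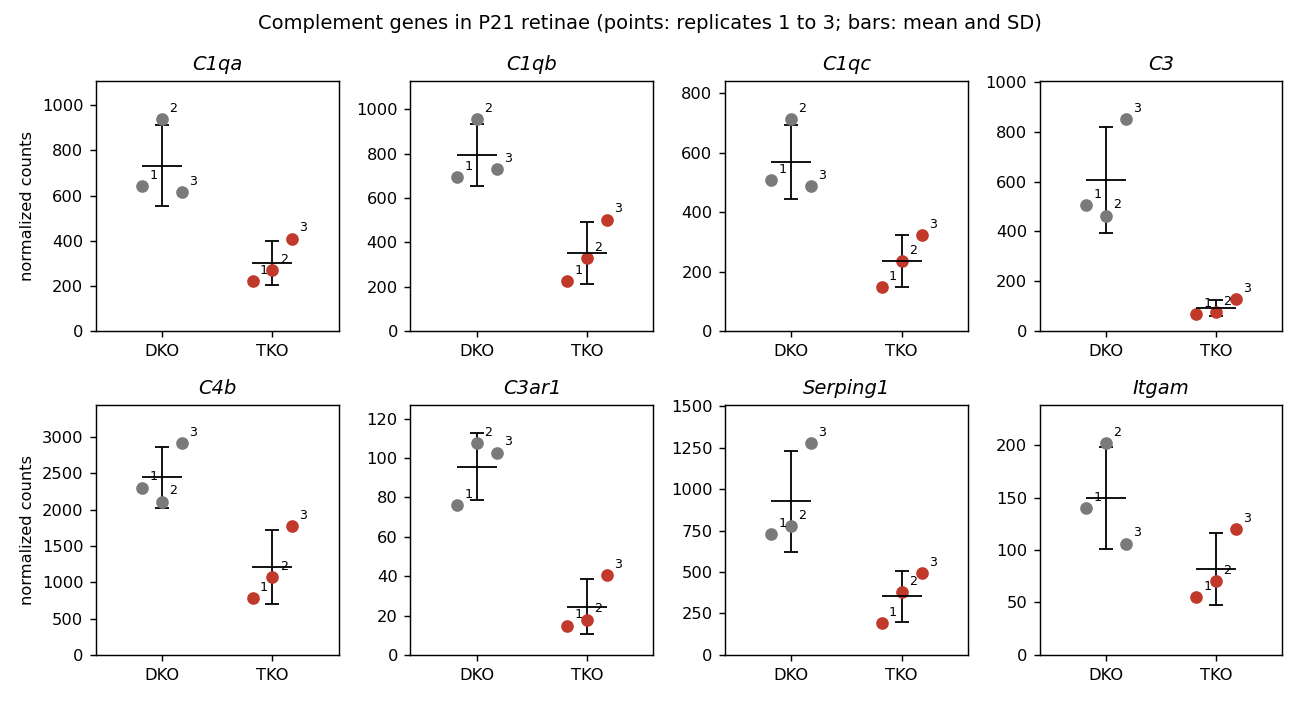
Normalized counts of each complement gene in the 3 DKO retinae (grey) and the 3 TKO retinae (red), on linear axes from 0. Points are retinae numbered by replicate, and bars show the group mean and SD. TKO1 is lowest for every gene, and only for Itgam does a DKO retina (DKO3) lie below a TKO retina (TKO3).

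Serping1, whose product inhibits C1r and C1s, fell as well. Its normalized counts were 190.4, 377 and 495 in the TKO retinae and 728, 778 and 1279.6 in the DKO retinae. As for C3 and C4b, DKO3 was the highest library. The log2 fold change was -1.39 ± 0.33 (edgeR, adjusted p = 0.0263, SE, n = 3 per group). The call was lost with robust dispersion (adjusted p = 0.0723) and without TKO2, DKO1 or DKO2 (edgeR adjusted p of up to 0.0876).

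Of the 2 receptor genes, C3ar1 fell and Itgam did not pass. C3ar1 was the least abundant gene of the set, at 14.9, 17.9 and 40.5 normalized counts in the TKO retinae and 76.2, 108 and 103 in the DKO retinae. Its groups were well separated, and its log2 fold change of -1.98 ± 0.36 was second to that of C3 (edgeR, adjusted p = 0.0119, SE, n = 3 per group). Itgam had 55.0, 70.5 and 120.3 normalized counts in the TKO retinae and 140.2, 202 and 106 in the DKO retinae. DKO3 lay below TKO3, and the log2 fold change of -0.87 ± 0.33 had an adjusted p of 0.106 in edgeR (SE, n = 3 per group), which reached 0.0252 only without TKO3.

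The number of calls depended on single retinae. Without TKO2 or without DKO2, 1 of the 8 genes passed (C3), without DKO1 3 passed, without TKO1 or DKO3 6 passed, and without TKO3 all 8 passed. The share of all tested genes that fell also moved, to 2.41% without TKO2, 2.6% without DKO2, 2.99% without DKO1, 4.57% without TKO1, 10.3% without DKO3 and 11.8% without TKO3. All 8 log2 fold changes were below 0 in each of these fits.

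Levels between genes were compared per length, as TPM, the counts per length of annotated exon scaled to the same total in each library. In DKO retinae, C1qb (268 ± 47.8, SD, n = 3) and C1qa (259 ± 64.5) were highest and did not differ beyond their spread. C4b (157 ± 23.3) and Serping1 (146 ± 43.3) followed, again within their spread of each other, and the values of Serping1 also overlapped those of C1qc (109 ± 24.2). C3 (43.1 ± 13.8) was below C1qc in every DKO retina, and Itgam (11.0 ± 3.66) and C3ar1 (8.13 ± 1.29) were lowest and overlapped. In TKO retinae, the means ran from C1qb (110 ± 48.4) through C1qa (97.6 ± 36.5), C4b (71.9 ± 33.8) and Serping1 (51.4 ± 24.1) to C1qc (41.2 ± 17.1). Across retinae, the values of each of these genes overlapped those of its neighbor. Within every TKO retina, however, C1qa lay above C4b, C4b above Serping1 and Serping1 above C1qc. C1qb lay above C1qa in TKO2 and TKO3 but not in TKO1. C3 had the largest fold drop, to 6.07 ± 2.48, close to Itgam (5.52 ± 2.57). It stayed above Itgam in every TKO retina, but by less than in DKO retinae. The values were 4.37 against 3.58 in TKO1, 4.92 against 4.56 in TKO2 and 8.91 against 8.43 in TKO3. C3ar1 was at 1.93 ± 1.20.

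**Figure D2:**
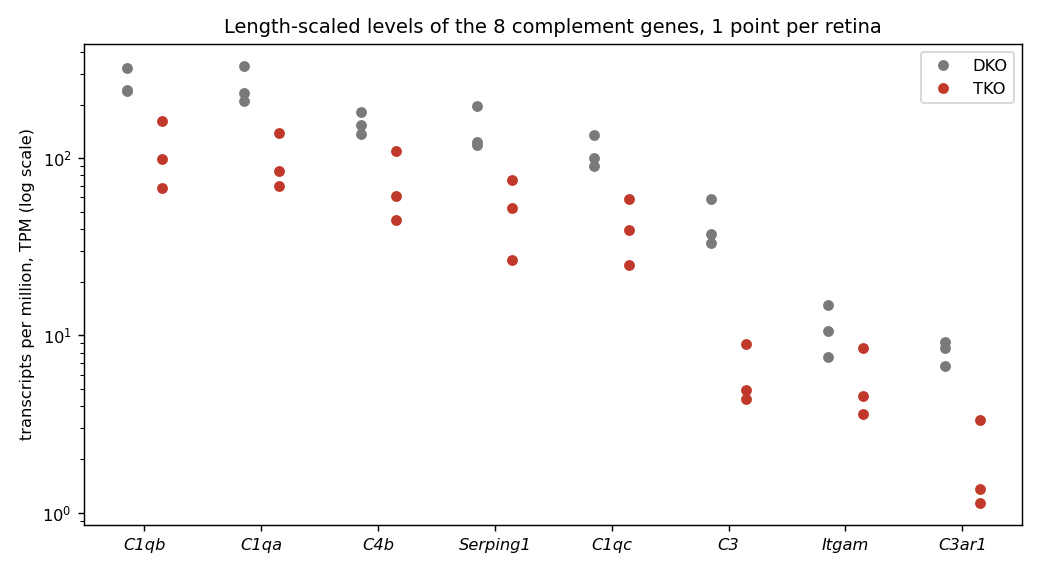
Length-scaled level of the 8 complement genes (TPM, log scale), ordered by the DKO mean, with 1 point per retina (DKO grey, TKO red). C3 lies above Itgam in every DKO retina (33.2 to 58.8 against 7.52 to 14.8). It lies only narrowly above Itgam in each TKO retina, where the ranges overlap (4.37 to 8.91 against 3.58 to 8.43).

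Of 54 other complement genes listed, 39 could be tested, of which 4 fell, 2 rose and 33 did not pass, with a median log2 fold change of -0.19. These counts are read against the 9.2% of all tested genes that fell and the 7.35% that rose, and lie near them. The 4 that fell were C1ra, Itgb2, Itgax and Cfi. C1ra, the protease activated by C1q, had normalized counts of 27.5, 27.4 and 54.0 in TKO and of 83.8, 70.9 and 94.97 in DKO retinae (log2 fold change -1.20, edgeR adjusted p = 0.0308). Itgb2, the partner chain of Itgam, had 32.1, 41.0 and 54.0 against 73.4, 90.2 and 88.1 (-0.99, adjusted p = 0.0273). The calls of C1ra and Itgb2 were lost on leaving out any retina other than TKO3 (edgeR adjusted p of up to 0.112 and 0.106). Itgax, which pairs with Itgb2 in complement receptor 4, had 9.17, 9.47 and 23.3 against 39.5, 77.9 and 27.6 (-1.80, adjusted p = 0.0462), and its call was lost with Y-linked expression as a covariate (adjusted p = 0.111). The Itgax call was also lost without TKO1, TKO2, DKO1 or DKO2 (edgeR adjusted p of up to 0.164). In each of the 3, TKO3 was the highest of the TKO retinae. Cfi, the protease that inactivates C3b and C4b, had 27.5, 20.0 and 16.0 against 70.6, 53.4 and 82.0 (-1.69, adjusted p = 0.0101). For none of these did the groups overlap, and Cfi, unlike the 8 genes, was highest of the TKO retinae in TKO1.

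By step, 1 of 13 tested genes of initiation and the convertases fell (C1ra) and 1 rose (C4a). C4a had 61.9, 50.5 and 49.1 normalized counts in TKO and 29.2, 22.8 and 31.9 in DKO retinae (log2 fold change 0.94, edgeR adjusted p = 0.0351), opposite in direction to C4b. This value is uncertain because of the near-identical copy. The call was lost with Y-linked expression as a covariate (edgeR adjusted p = 0.0586), Y-linked counts being present in TKO1, DKO1 and DKO2 only. It was also lost without TKO1, TKO2, DKO1 or DKO2 (edgeR adjusted p of up to 0.129) and with total counts as the only scaling. The 3 most abundant genes of this step did not pass. Masp2 of the lectin pathway, whose annotation overlaps Tardbp, had a log2 fold change of -0.047, properdin (Cfp) of 0.035 and factor B (Cfb) of -0.46 (adjusted p = 0.0970 in edgeR for Cfb). Cfb was lower in every TKO retina, at 105.5, 99.99 and 95.7 against 123, 128 and 162 normalized counts, and passed with total counts as the only scaling (-0.61, adjusted p = 0.0342 in edgeR). C2 was lower in every TKO retina, at 22.9, 21.0 and 46.6 against 78.1, 62.2 and 56.98, with an adjusted p of 0.0527 in edgeR, and was chosen for mention after its values were seen.

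The terminal pathway was scarcely measured. Of its 7 genes, C8g (35.4 to 50.5 normalized counts) and C8b (0.941 to 5.73) were tested and did not pass, and Hc, C6, C7, C8a and C9 had too few counts. Among 9 tested receptors, 2 fell (Itgb2 and Itgax) and the 3 most abundant, which also serve outside complement, did not pass, with log2 fold changes of 0.096 for Calr, -0.11 for Lrp1 and -0.17 for C1qbp. Of 15 tested regulators, 1 fell (Cfi) and 1 rose. The one that rose was Vtn (vitronectin), which blocks the terminal complex and also serves in cell adhesion, with 9702, 9106 and 5855 normalized counts in TKO and 1990.5, 2033 and 3869 in DKO retinae. Its log2 fold change was 1.64 ± 0.29 (edgeR, adjusted p = 0.0106), and no DKO retina reached a TKO retina. The other abundant regulators, Clu at 0.057 and Sez6 at -0.19, did not pass. Of the 37 to 39 of these genes that could be tested with 1 retina left out, 1 fell and 0 rose without DKO1 or without DKO2, and 1 fell and 1 rose without TKO1 or without TKO2. Without DKO3 2 fell and 2 rose, and without TKO3 5 fell and 2 rose. The shares of all genes that fell in these fits are those given above for the 8 genes, and apply only to the genes that fell. No matching share is given for genes that rose, so the counts that rose are not read as a result.

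**Figure D3:**
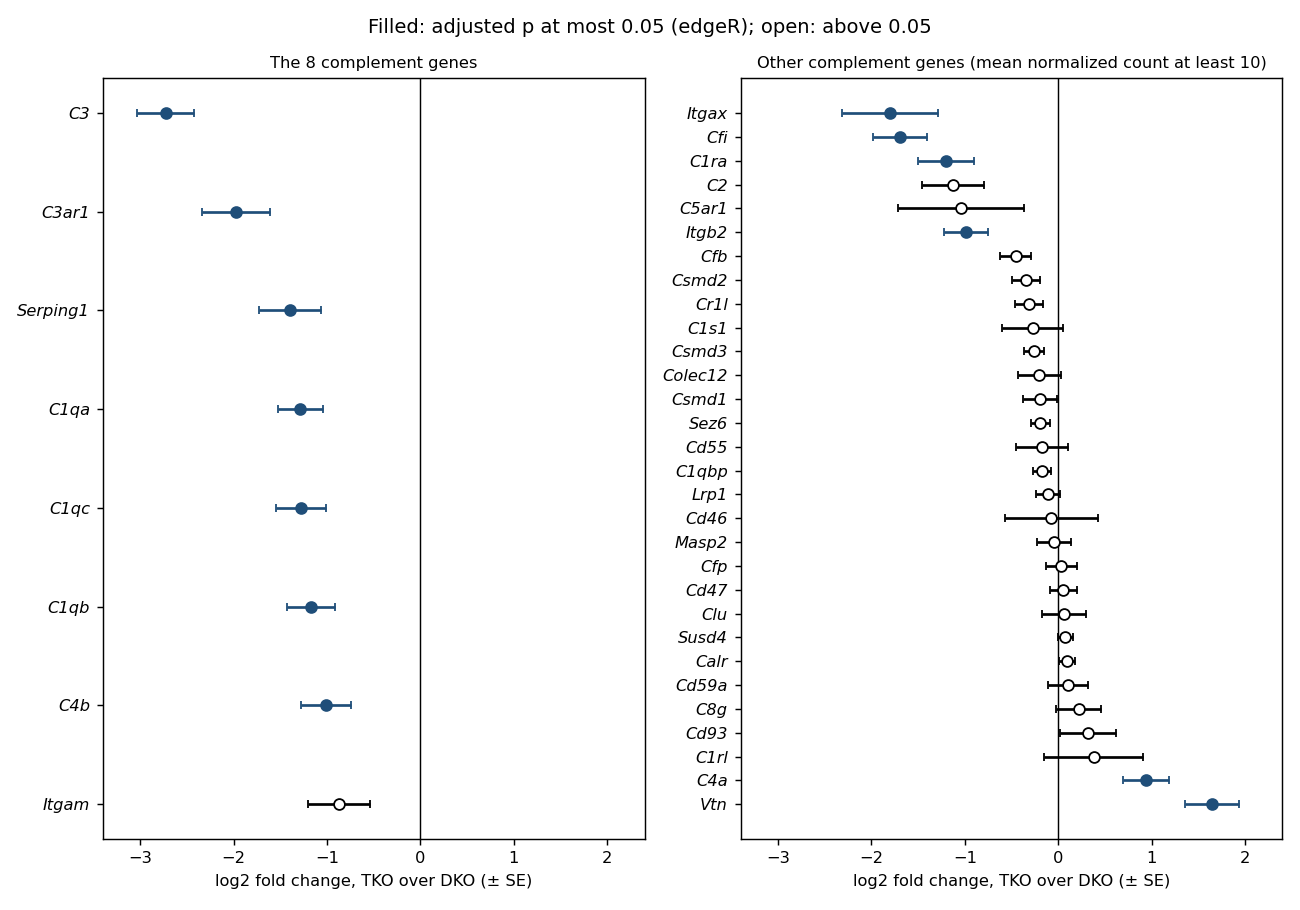
Log2 fold change (TKO over DKO, bars 1 SE) of the 8 complement genes (left) and of other tested complement genes with a mean of at least 10 normalized counts (right, not all shown). Filled points have an edgeR adjusted p of at most 0.05. All 8 values on the left lie below 0, whereas those on the right run from -1.80 (Itgax) to 1.64 (Vtn).

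Microglia markers were lower in TKO retinae as well. Of 20 markers, all tested, 10 fell and none rose (median log2 fold change -1.09), where 9.2% of all tested genes fell, and 13 fell in DESeq2, where 10.5% did. Their summed normalized counts were 2382, 2903 and 3956 in the TKO retinae and 6099, 7027 and 4412 in the DKO retinae. Abundant markers that fell were Ctss (log2 fold change -0.95, edgeR adjusted p = 0.0252) and Csf1r (-1.03, adjusted p = 0.0135). The markers did not move as one. P2ry12, a receptor of homeostatic microglia, had 60.8, 89.5 and 88.4 normalized counts in TKO against 88.5, 96.3 and 48.4 in DKO retinae (0.035, adjusted p = 0.945), and Siglech was at 37.8, 38.9 and 34.4 against 20.7, 28.0 and 16.4 (0.77, adjusted p = 0.100). The count of 10 became 2 without TKO2 or without DKO2, 3 without DKO1 and 14 without DKO3. Of all tested genes, 2.41% fell without TKO2, 2.6% without DKO2, 2.99% without DKO1 and 10.3% without DKO3.

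The complement counts were therefore also expressed as a percent of the summed counts of these markers in the same library, which needs no scaling between libraries. C3 was 2.89%, 2.68% and 3.29% of the marker counts in the TKO retinae and 8.32%, 6.60% and 19.3% in the DKO retinae, a log2 difference of -1.79. C3ar1 was 0.626%, 0.616% and 1.02% against 1.25%, 1.53% and 2.33%, a log2 difference of -1.17. For C1qa (-0.38) and C1qc (-0.40) the groups were only just apart, with 10.4% in TKO3 against 10.5% in DKO1 for C1qa and 8.19% against 8.33% for C1qc. Each of these 4 had p = 0.1 in a two-sided exact permutation test, the smallest that 3 against 3 retinae allow. C1qb (-0.30, p = 0.2), Serping1 (-0.52, p = 0.6), C4b (-0.15, p = 0.8) and Itgam (0.033, p = 0.6) overlapped between groups in the same exact test, and without DKO3 Serping1 became -0.077 and C4b 0.17. Itgam was 2.31% to 3.04% of the marker counts in TKO and 2.30% to 2.88% in DKO retinae.

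Markers listed for other immune cells were examined as well. Of 8 tested monocyte, macrophage and neutrophil markers, 2 fell, Ms4a7 (-3.001, edgeR adjusted p = 0.0203) and Lyz2 (-2.17, adjusted p = 0.0237), with a median of -2.37, where 9.2% of all tested genes fell. TKO3 was the highest TKO retina for both, and without it they were at -4.22 and -3.005. The Ms4a7 call was lost without TKO1, TKO2 or DKO2 (edgeR adjusted p from 0.0638 to 0.0848). The Lyz2 call was lost without TKO2, DKO1 or DKO2 (edgeR adjusted p from 0.0505 to 0.0985). The summed counts of that list, mostly Lyz2, were 51.6, 125 and 319 in TKO and 498, 855 and 854 in DKO retinae, in the same TKO order as the complement genes. Mrc1, the next most abundant, had an adjusted p of 0.0533. The monocyte receptor gene Ccr2 had 0, 1.05 and 0 normalized counts in TKO and 0, 11.4 and 32.8 in DKO retinae, and Ly6c2, S100a8 and Retnlg had at most a few counts. Of 4 tested lymphocyte markers 1 fell (Cd4, -2.05, adjusted p = 0.0416), Cd8a did not pass, and Cd3e had no count in any library. Without TKO3 Cd4 was at -2.88. Its call was lost without TKO1, TKO2, DKO1 or DKO2 (edgeR adjusted p from 0.111 to 0.140). The part of these cells in the complement result was not tested.

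Among glia, 4 of 12 Müller glia and astrocyte markers rose, led by Glul (log2 fold change 1.15) and Rlbp1 (0.76) with Kcnj10 and Abca8a, and 1 fell (Apoe, -0.90), while Dkk3 (-0.061) did not pass. Over all tested genes 7.35% rose and 9.2% fell, against which the counts in these glial and interferon lists are to be read. Of 15 reactive gliosis genes, 6 fell (median -0.89), among them Lcn2 (-4.86), Timp1 (-3.95), Steap4 (-3.84) and Cp (-0.89). DKO3 carried part of these values, and without it they were -3.76 for Lcn2, -2.10 for Timp1, -3.001 for Steap4 and -0.66 for Cp. Gfap, the intermediate filament of reactive glia, had 1341, 2669 and 3640 normalized counts in TKO and 5595, 3948 and 11556 in DKO retinae (-1.46, edgeR adjusted p = 0.0566), and Vim did not pass (-0.41). The summed counts of the gliosis list were 11395, 16283 and 18770 in TKO and 24157, 19731 and 44972 in DKO retinae. They were highest in DKO3 and lowest in TKO1, as were C3, C4b and Serping1. Of 20 type I interferon response genes, 18 fell (median -1.82), for example Oasl2 (-1.78), and Stat2 (-0.082) was among those that did not pass. Their summed counts were 3891, 3419 and 3302 in TKO and 7815, 6635 and 6716 in DKO retinae, without the rise in DKO3 and with TKO1 the highest of the TKO retinae.

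**Figure D4:**
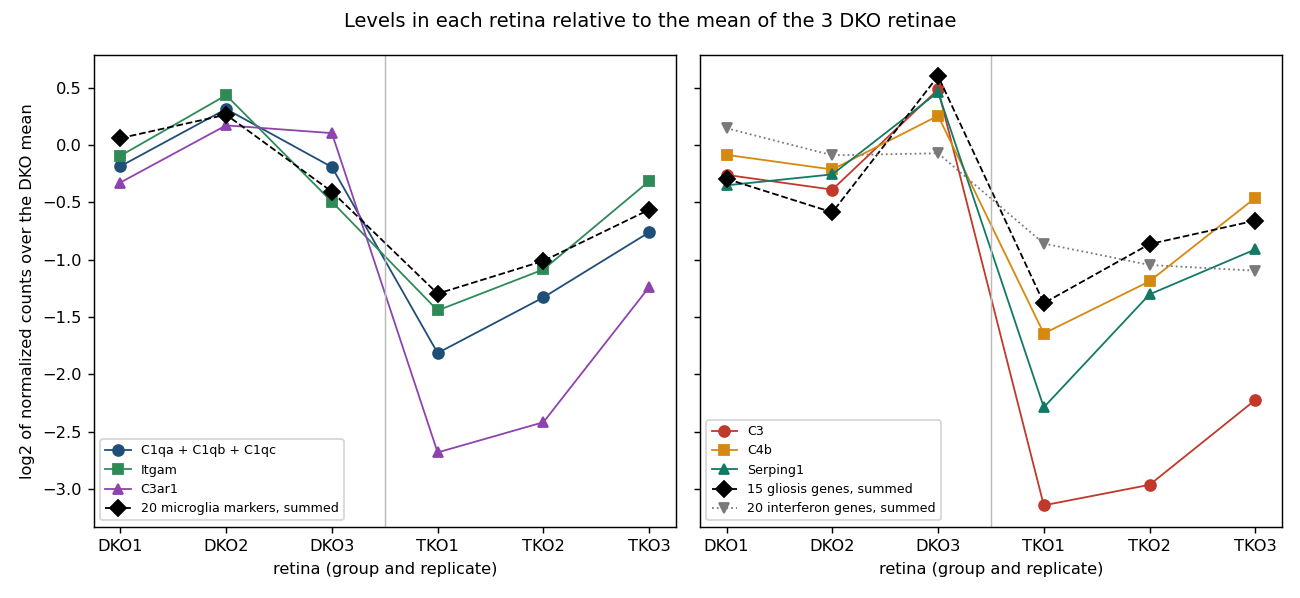
Log2 of normalized counts over the mean of the 3 DKO retinae, for each retina. Left, the summed C1q chains, Itgam, C3ar1 and the summed microglia markers; right, C3, C4b, Serping1 and the summed gliosis and interferon genes. Left, the C1q chains, Itgam and the markers peak in DKO2; right, C3, C4b, Serping1 and the gliosis genes peak in DKO3.

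Within the DKO retinae, the 8 genes did not share one order. The C1q chains and Itgam were highest in DKO2, as were the summed microglia markers, whereas C3, C4b and Serping1 were highest in DKO3, where the markers were lowest of the DKO retinae. C3ar1 was about level in DKO2 and DKO3 (108 and 103 normalized counts) and lower in DKO1. In the TKO retinae all 8 genes shared the order TKO3, TKO2, TKO1 from high to low. The genes most like the summed C1q chains over the 6 retinae were Crabp1 and Fam19a5 (Pearson r of 0.998 for both), Gstm7 and Mn1 (0.996 for both) and Ly6e (0.995), among 11678 genes compared. Those most like C4b were Nckap5l (0.997), Fzd7 (0.993), Rhbdf1, Elmsan1 and Vasp (0.991 each), among 11680 genes. With 6 retinae that share a group difference such values are common, and 486 genes reached 0.95 with C1q and 179 with C4b.

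Markers of other retinal cells were compared in the same way, beside the 7.35% of all tested genes that rose and the 9.2% that fell. All 6 rod markers rose in TKO retinae (median log2 fold change 1.88, among them Gnat1 and Sag), and all 8 cell division genes fell (median -2.32, with Pcna, Top2a and Mki67 the most abundant). The summed rod counts were 640344, 545579 and 311236 in TKO and 109124, 106043 and 202541 in DKO retinae. The rod sum was highest in TKO1, where the 8 complement genes were lowest of the TKO retinae, and among DKO retinae in DKO3, where C3, C4b and Serping1 were highest. The summed cell division counts were 2033, 2891 and 4644 in TKO and 16553, 13537 and 8871 in DKO retinae. None of 10 interneuron and ganglion cell markers passed in edgeR (median 0.059), including Gad1, Nefl and Slc6a9. Of 10 vascular markers 1 rose (Pecam1), near the share of all genes, and the abundant Kdr, Rgs5 and Pdgfrb did not pass. Lens transcripts were present in TKO2 above all, with summed counts of 626, 3470 and 519 in TKO and 106, 109 and 105 in DKO retinae, and 4 of 8 lens markers rose, of which Cryaa, Cryba1 and Crybb2 were the most abundant. Of 6 markers of the retinal pigment epithelium 2 rose (Rpe65 and Rlbp1, the latter shared with Müller glia), Ttr and Rgr did not pass, and the sums were 10309, 10589 and 7463 in TKO and 4401, 5361 and 6046 in DKO retinae. Most of these sums was Rlbp1, and without it they were 1329, 2535 and 512 against 108, 627 and 926, so that the groups overlapped. The part of these differences in the complement result was not tested.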

How the data were processed

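Whole-retina mRNA (TruSeq Stranded mRNA) was sequenced in 3 TKO and 3 DKO retinae, grouped by label. The values deposited by the authors were raw counts per gene symbol. The study's methods name STAR and HTSeq on GRCm38, whereas the submitters' processing notes name TopHat2 and featureCounts. The strand setting was not given in the sources used here, so overlapping genes are less certain. Genes with a count sum of at least 10 (16904) were tested with edgeR 4.0.16 (TMM, quasi-likelihood F test, Benjamini-Hochberg adjustment over all of them), and the SE was derived from the F statistic. Normalized counts are counts divided by TMM-scaled library size relative to the mean. In a simulation of TKO against DKO on 16764 genes, 77 of 100 genes changed by a log2 fold of 1 and 100 of 100 changed by 2 were recovered. It gave every gene the same common dispersion (0.0246) and changed only genes with a mean of at least 10 normalized counts. Recovery of genes more variable than this was not simulated. A count of 0 allows up to 3 counts (counting error only). Exon lengths came from GENCODE M21 (94.5% of symbols matched). The complement genes and all lists were chosen with earlier results of these data known. Named genes were the 8 genes, other complement genes that passed, the 3 most abundant of each list and the 5 most alike to C1q and C4b, with further genes picked as examples; a few are not reported here. Alternatives covered tool (DESeq2 1.42.0), scaling, filter, dispersion, replicate block, sex, single retinae and a 5-marker microglia denominator. Proteins were not analysed here.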

Additional observations from a re-analysis of the deposited data

How the results depend on the processing

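The 8 complement genes gave 7 calls in edgeR. With the replicate block 1 of the 8 passed, by adjusted p alone and by all 3 criteria, and of the other complement genes and of the microglia markers 0 passed. In that fit only 0.485% of all genes fell. Deviations from the group mean of same-numbered retinae had correlations of 0.065, -0.053 and -0.233, and other pairs of retinae ran from -0.252 to 0.253. With 3 retinae per group, this check cannot decide whether same-numbered retinae were paired. Leaving out 1 retina gave 1 to 8 of the 8 genes, 1 to 8 by the 3 criteria, 1 to 7 other complement genes and 2 to 14 microglia markers. In these fits 2.41% to 11.8% of all tested genes fell by adjusted p. No such share is given for the 3 criteria or for genes that rose. DESeq2, 3 other scalings and 2 other filters each left 7 of the 8 genes called, and robust dispersion left 5. With total counts as the only scaling the median over all genes moved to -0.17, and 7 other complement genes fell and 1 rose, where 15.4% of all genes fell. Among fold changes of the complement genes, directions turned only for genes that did not pass. Relative to the microglia markers, 5 markers as the denominator gave -0.54 for C1qa, -0.32 for C4b, -1.96 for C3 and -0.13 for Itgam. With total counts Cfp was at -0.12, Calr at -0.061 and Clu at -0.089, and with the Y-linked covariate Masp2 was at 0.036 and Clu at -0.11. Over the fits that leave out 1 retina, Masp2 ran from -0.16 to 0.12, Cfp from -0.048 to 0.19, C8b from -0.27 to 1.10 and Clu from -0.098 to 0.38. Of the marker genes named as passing, Glul, Rlbp1, Lcn2, Oasl2, Cryaa, Pcna and Top2a kept their calls in every fit that left out 1 retina, and some others did not, such as Timp1, Apoe, Ctss and Csf1r. Alignment of reference proteins was not run. C3ar1, C8b and Ccr2 had low counts, and how far these limit their precision was not tested.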
